A study of Mus musculus with 9 samples.

Results

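The genes described here carry out cell division: 48 mouse genes were listed by name for their roles in mitotic entry, the spindle poles, the centromere and kinetochore, the spindle checkpoint, chromosome structure, the mitotic kinesins and cytokinesis. The list was drawn up with earlier results of these data known. Its counts beside those of the whole series are therefore descriptions and not independent tests. Of these 48 genes, 47 had a probe set that is annotated with a single gene symbol, and all 47 passed the filter on low signals. The whole series holds 18193 genes with such a probe set, of which 11575 passed that filter and were tested. Ccnb1, the cyclin B1 gene, had no probe set listed under its symbol alone and is described only by its promoter.

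Sorted limb cells were followed at 3 stages of embryonic development, E11.5, E12.5 and E14.5 (days after fertilization), with 3 Affymetrix Mouse Genome 430 2.0 arrays per stage, named A, B and C. All 9 samples came from Scx-GFP embryos, whose green fluorescent protein reports on Scx, the gene of the tendon transcription factor scleraxis. Embryos came from natural matings, their forelimbs were dissociated with trypsin, and cells with GFP were taken by 1 of 2 flow sorters. No sample came from embryos without the reporter, and no GFP-negative fraction was analysed, so each comparison is between stages of cells sorted by the same reporter. The mix of cell types in these sorted cells need not be the same at each stage, and marker signals are given below. The mouse strain, the number of embryos per sample and the meaning of a letter are not given in the sources used here. Nothing in the labels ties the 3 samples of a stage to separate litters, and the p-values therefore measure only the spread between these samples. Summed signals of 8 tendon markers lay between 24520 and 32249 at E11.5, between 28386 and 41445 at E12.5 and between 58962 and 74003 at E14.5.

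A cell enters mitosis when the kinase Cdk1, bound to A-type and B-type cyclins, is switched on by Cdc25 phosphatases. Aurora and Polo kinases then build the spindle, kinetochores assembled on centromeric chromatin attach chromosomes to it, and the spindle checkpoint holds the cell in metaphase until every chromosome is attached. Many of these genes are transcribed in a wave late in the cell cycle and their messenger RNAs decline afterwards, so in a mixed population their level follows, among other things, how many cells are near division.

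Between E11.5 and E14.5, 43 of the 47 genes fell and none rose. The background was a fall in 17.7% and a rise in 22.9% of all genes tested (limma, Benjamini-Hochberg adjusted p under 0.05). The median log2 change of the 47 genes was -1.08, while that of all genes tested was 0.00, and single genes ranged from -1.70 for Cenpj to 0.03 for Cdc25b. Changes below 0 were found for 46 of the 47 genes and for 49.8% of all genes tested. limma's F-test for any difference among the stages called 40 of the 47 genes, beside 33.7% of all genes tested. In signal, the mean at E14.5 stood at a median of 48.1% of the mean at E11.5, from 30.8% for Cenpj to 103% for Cdc25b. For 46 of the 47 genes every E14.5 array lay below every E11.5 array, an ordering met by 24.1% of all genes tested. The genes that were not called were Cdc25b, Ndc80, Nuf2 and Anln. Without the 3 letter A arrays 33 genes passed, beside 10.9% of all genes tested, and Cdk1, Aurkb, Birc5, Cenpa, Spc25, Ncapd2, Smc4, Kif23, Racgap1 and Prc1 did not. In sorted but mixed cells, fewer dividing cells and less messenger RNA per dividing cell cannot be told apart.

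**Figure D1:**
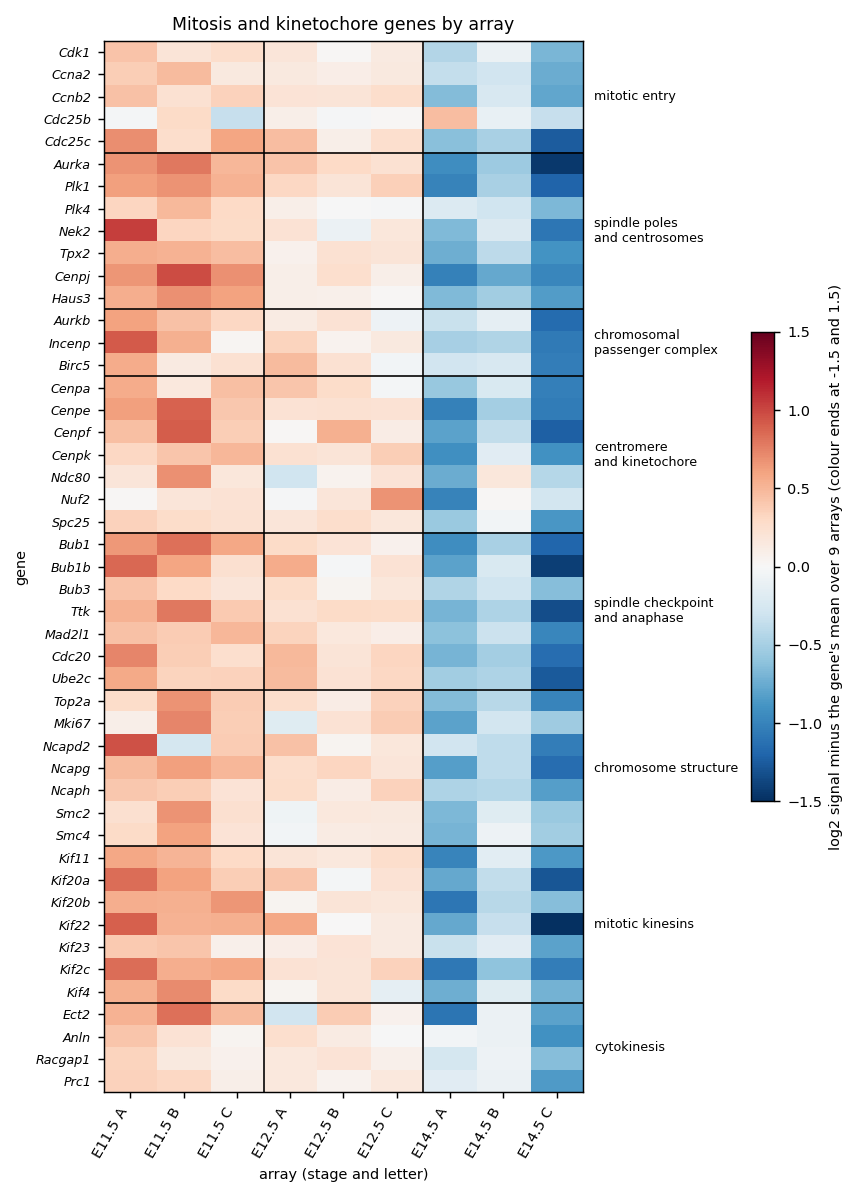
Log2 signal of each of the 47 genes in each of the 9 arrays, minus the gene's mean over the arrays, with genes grouped by role and a colour scale from -1.5 to 1.5. The E11.5 columns are above the gene means for nearly all genes, the E12.5 columns lie close to them, and the E14.5 columns are below them, with E14.5 C the lowest and E14.5 B the least low.

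Most of this difference lay after E12.5. From E11.5 to E12.5, an interval of 1 day, 2 of the 47 genes fell (Cenpj and Haus3) and none rose, beside 0.441% of all genes tested that fell and 3.11% that rose. The median change was -0.27 (all genes tested, 0.04), and 45 of the 47 changes were below 0, as were 43.5% of changes over all genes tested. A further 7 genes had an unadjusted p under 0.05 without passing the adjusted threshold. From E12.5 to E14.5, an interval of 2 days, 30 genes fell and none rose, beside a background of 9.32% that fell and 12.6% that rose. The median change in this second interval was -0.81 (all genes tested, -0.05). All 47 changes were below 0, from -1.29 for Aurka to -0.03 for Cdc25b, as were 54.3% over all genes tested. Without the 3 letter A arrays, which leaves 2 arrays per stage, 10 genes passed in the second interval in place of 30, while the share of all genes tested that fell went from 9.32% to 2.58%. With the letters as a replicate block, 39 genes passed, beside 11.9% of all genes tested: the 30 and also Aurkb, Birc5, Nuf2, Mki67, Smc2, Smc4, Kif4, Ect2 and Racgap1. Under all 21 alternatives, 8 of the 30 calls held.

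The arrays of adjacent stages often separated fully. Every E12.5 array was below every E11.5 array for 21 of the 47 genes, against 7.75% of all genes tested, and every E14.5 array was below every E12.5 array for 43, against 21.9%. The opposite ordering, with the later stage above, was not found for any of the 47 genes, while 15.8%, 20.6% and 27.3% of all genes tested showed it in the first interval, the second interval and the whole course. For 20 genes both orderings held, so that the 3 stages formed 3 separate steps, which 4.20% of all genes tested did. Cenpj and Haus3 were called in both intervals, as were 0.207% of all genes tested. Another 28 genes were called in the second interval only, beside 1055 of all 11575 genes tested that fell in that way. A further 13 were called between E11.5 and E14.5 without being called in either interval, beside 1049 of all genes tested. Passing in one interval and not in the other does not show that the intervals differ. When E12.5 was set against the midpoint of the earlier and later stage, 46 of the 47 genes lay above the midpoint, the exception being Ndc80. Over all 11575 genes tested, 4719 lay below it. With intervals of 1 and 2 days, a decline at a steady rate per day would also put E12.5 above the midpoint. None of the 47 genes passed the adjusted threshold in limma and 10 had an unadjusted p under 0.05. Of all genes tested, 0.138% were called above the midpoint and 0.631% below it. Per day, the median change was -0.27 in the first interval and -0.41 in the second. The drop per day was steeper in the second interval for 36 genes and in the first for 11, a count that was not made over all genes tested.

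**Figure D2:**
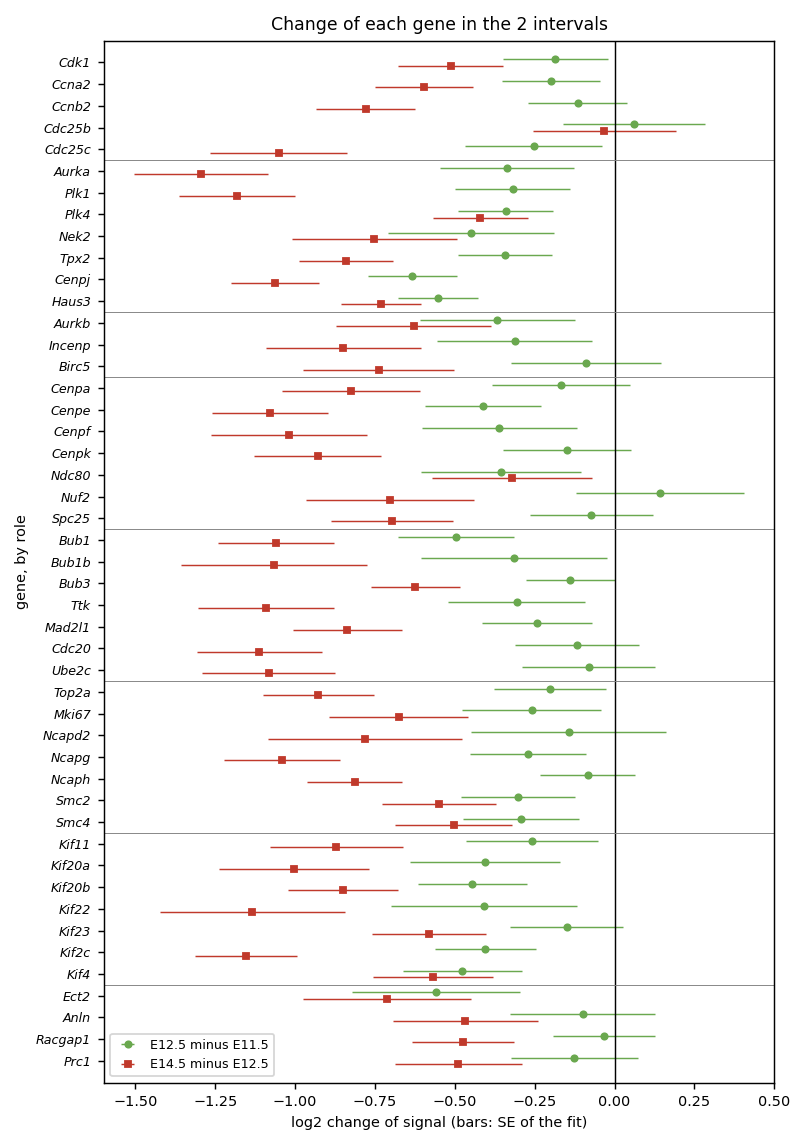
Log2 change of each gene from E11.5 to E12.5 (green circles) and from E12.5 to E14.5 (red squares), with the SE of the fit as bars and genes ordered by role. The second change is the more negative one for 46 of the 47 genes, and the only circles right of 0 belong to Cdc25b and Nuf2.

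**Figure D3:**
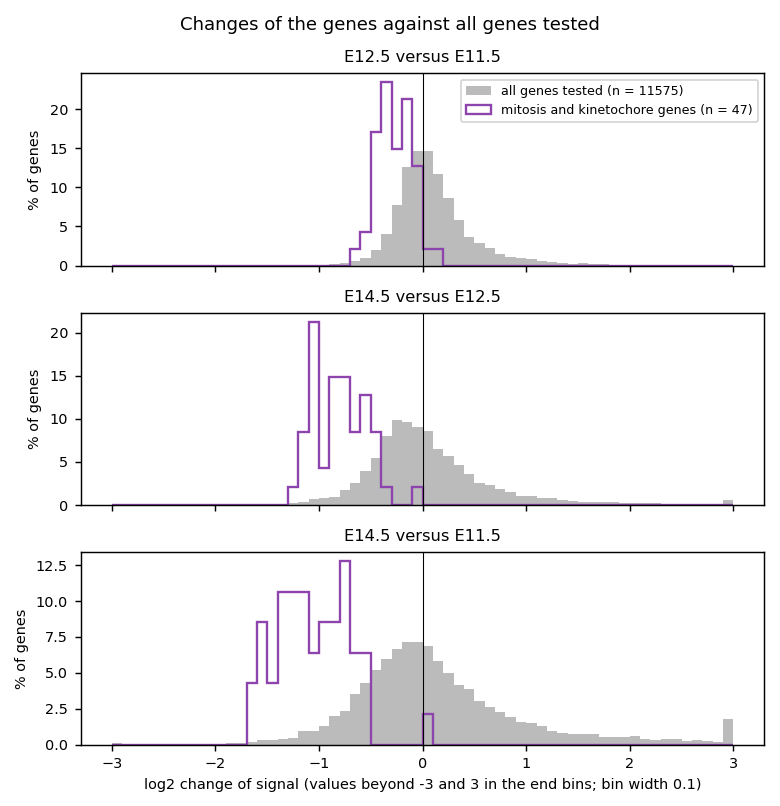
Share of genes by log2 change in each comparison, for all 11575 genes tested (grey) and the 47 mitosis and kinetochore genes (outline), in bins of 0.1. The outline is centred at -0.27, -0.81 and -1.08 in the panels from top to bottom, while the grey distribution stays centred near 0.

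The promoters of such genes are known for paired elements near the start site. CCAAT boxes are bound by the factor NF-Y, and the cell cycle genes homology region (CHR), whose usual letters are TTTGAA or the variant TTCGAA, is bound by the DREAM complex in resting cells and by MuvB with B-Myb and FoxM1 in dividing cells. RefSeq windows from 250 bases before to 50 after the start of transcription (build GRCm38.p6) were matched by symbol for 41 of the 48 genes, which gave 46 windows because some genes have several starts. The windows below belong to Ccnb2, Cdk1, Aurka, Plk1 and Bub1, whose signals fell, to Cdc25b, whose signals overlapped between all stages, and to Cenpj, which had the largest fall. Each is printed in the direction of transcription, with capitals for matches on either strand to CCAAT and to the CHR letters. The E2F letters, TTTGGCGC or the variant TTTCGCGC, were searched on both strands as well and are left in lower case. A CCAAT match on the other strand therefore reads ATTGG, and a TTTGAA match reads TTCAAA.
Ccnb2, chr9:70421505-70421804, minus strand: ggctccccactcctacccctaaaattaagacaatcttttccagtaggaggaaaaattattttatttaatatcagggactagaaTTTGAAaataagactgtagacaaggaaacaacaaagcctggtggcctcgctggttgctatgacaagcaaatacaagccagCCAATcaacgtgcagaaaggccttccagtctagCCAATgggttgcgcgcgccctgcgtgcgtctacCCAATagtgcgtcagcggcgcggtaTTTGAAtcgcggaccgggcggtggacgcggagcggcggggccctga
Cdk1, chr10:69352863-69353162, minus strand: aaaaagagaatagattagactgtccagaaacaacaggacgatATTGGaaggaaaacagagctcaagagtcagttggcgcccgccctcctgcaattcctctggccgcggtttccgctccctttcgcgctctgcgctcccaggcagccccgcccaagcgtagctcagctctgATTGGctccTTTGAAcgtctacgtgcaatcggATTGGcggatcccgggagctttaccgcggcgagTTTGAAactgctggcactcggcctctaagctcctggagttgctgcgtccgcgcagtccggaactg
Aurka, chr2:172370521-172370820, minus strand: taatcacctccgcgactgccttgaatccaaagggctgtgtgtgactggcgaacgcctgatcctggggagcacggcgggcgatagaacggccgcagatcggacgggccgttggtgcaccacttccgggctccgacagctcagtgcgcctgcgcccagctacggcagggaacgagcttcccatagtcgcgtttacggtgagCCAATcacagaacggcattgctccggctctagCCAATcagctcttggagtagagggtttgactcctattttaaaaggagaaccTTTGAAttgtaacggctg
Plk1, chr7:122159185-122159484, plus strand: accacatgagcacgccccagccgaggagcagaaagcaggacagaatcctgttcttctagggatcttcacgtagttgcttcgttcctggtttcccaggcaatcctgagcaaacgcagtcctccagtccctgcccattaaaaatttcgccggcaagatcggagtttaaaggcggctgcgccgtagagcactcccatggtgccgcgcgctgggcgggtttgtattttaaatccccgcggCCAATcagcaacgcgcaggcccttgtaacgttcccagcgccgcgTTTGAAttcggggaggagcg
Bub1, chr2:127831810-127832109, minus strand: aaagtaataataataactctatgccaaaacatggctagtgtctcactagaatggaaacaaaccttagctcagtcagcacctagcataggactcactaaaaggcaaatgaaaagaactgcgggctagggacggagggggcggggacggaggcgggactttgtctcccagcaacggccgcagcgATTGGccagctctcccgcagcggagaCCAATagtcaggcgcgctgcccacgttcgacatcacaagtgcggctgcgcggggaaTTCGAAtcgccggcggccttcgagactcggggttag
Cdc25b, chr2:131186698-131186997, plus strand: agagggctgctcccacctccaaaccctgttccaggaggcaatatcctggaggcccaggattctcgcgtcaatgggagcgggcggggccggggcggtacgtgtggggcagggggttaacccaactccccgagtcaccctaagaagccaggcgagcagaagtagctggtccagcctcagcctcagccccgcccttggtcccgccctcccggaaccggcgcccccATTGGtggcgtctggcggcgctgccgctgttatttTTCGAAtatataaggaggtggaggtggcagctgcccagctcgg
Cenpj, chr14:56571797-56572096, minus strand: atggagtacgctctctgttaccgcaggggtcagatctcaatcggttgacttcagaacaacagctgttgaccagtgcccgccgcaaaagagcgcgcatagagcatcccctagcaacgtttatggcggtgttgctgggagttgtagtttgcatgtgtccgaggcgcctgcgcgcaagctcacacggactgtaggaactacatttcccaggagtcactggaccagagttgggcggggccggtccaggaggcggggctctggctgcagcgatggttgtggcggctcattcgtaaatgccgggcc

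In the Ccnb2 window 3 CCAAT boxes on the same strand begin at positions -87, -54 and -21, where 1 is the first transcribed base and no base is numbered 0, and TTTGAA begins at -167 and at 5. The Aurka window has CCAAT at -51 and -19 and TTTGAA at 33, and the Plk1 window has CCAAT at -14 and TTTGAA at 31. In Cdk1 the CCAAT letters lie on the other strand, at -208, -80 and -48, with TTTGAA at -71 and -15 and an E2F match, TTTCGCGC, at -131. Bub1 and Cdc25b share the variant TTCGAA, which reads the same on both strands and begins at 15 and at 8, each beside at least 1 CCAAT match. The Cenpj window holds none of these letters, which says nothing about the factors themselves.

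Among the 46 windows, 36 held CCAAT (78.3%), against 37.7% of the 12081 windows of genes tested and 37.4% of all 32851 windows. The CHR letters were in 33 windows (71.7%), against 13.6% of the windows of genes tested and 19.2% of all windows. Both kinds stood together in 29 windows (63.0%), against 5.50% and 7.52%. Counted by gene, CCAAT was found for 31 of 41 genes (75.6%, against 43.3% of genes tested) and the CHR letters for 30 (73.2%, against 16.1%). Both in 1 window were found for 26 (63.4%, against 6.69%). A pair of CCAAT boxes on the same strand whose first bases were 31 to 33 apart was in 7 windows (15.2%), those of Aurka, Ccnb1, Ccnb2, Cdk1, Nek2, Spc25 and Ube2c, against 1.47% and 0.794%. This spacing was chosen after the windows had been seen. The E2F letters were in 2 windows (4.35%, against 1.56% and 0.813%), and the TATA letters TATAAA were in 2 windows (4.35%, against 7.01% and 13.6%). No match of one of these motifs lies wholly inside a match of another.

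CHR letters lay near the start more often than CCAAT. Of 46 CHR matches in the members' windows, 31 (67.4%) began within 50 bases of the start, against 24.7% of 1819 such matches in the windows of genes tested. For CCAAT the corresponding shares were 30.1% of 73 matches and 27.3% of 7168. By role, the CHR letters were in 6 of 6 kinesin windows, 6 of 6 cytokinesis windows (4 genes) and 7 of 8 checkpoint windows (7 genes), and in 2 of 6 spindle pole windows. They were in 5 of 6 chromosome structure and 3 of 4 mitotic entry windows. The centromere and kinetochore had them in 4 of 9 windows (7 genes), and the passenger complex in 0 of 1. The windows of Bub3, Ect2 and Prc1 overlap, so the same letters there are counted more than once among windows and matches. Of 26 tested members with both motifs in a window 25 fell from E11.5 to E14.5 (median log2 change -1.09), and of the other 14 with a window 11 fell (median -1.08). Outside the list, 158 of 602 tested genes with both motifs in a window fell (26.2%), against 17.6% of all 9344 tested genes outside the list that have a window and 15.6% of the 4557 with neither motif. Genes with only the CHR letters fell in 19.0% of 757 cases and genes with only CCAAT in 18.7% of 3308. Where the motifs lay in different windows only, 11.7% of 120 fell. Further mitosis and S phase genes were not taken out of the 602. These are counts of letters, not tests of binding.

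**Figure D4:**
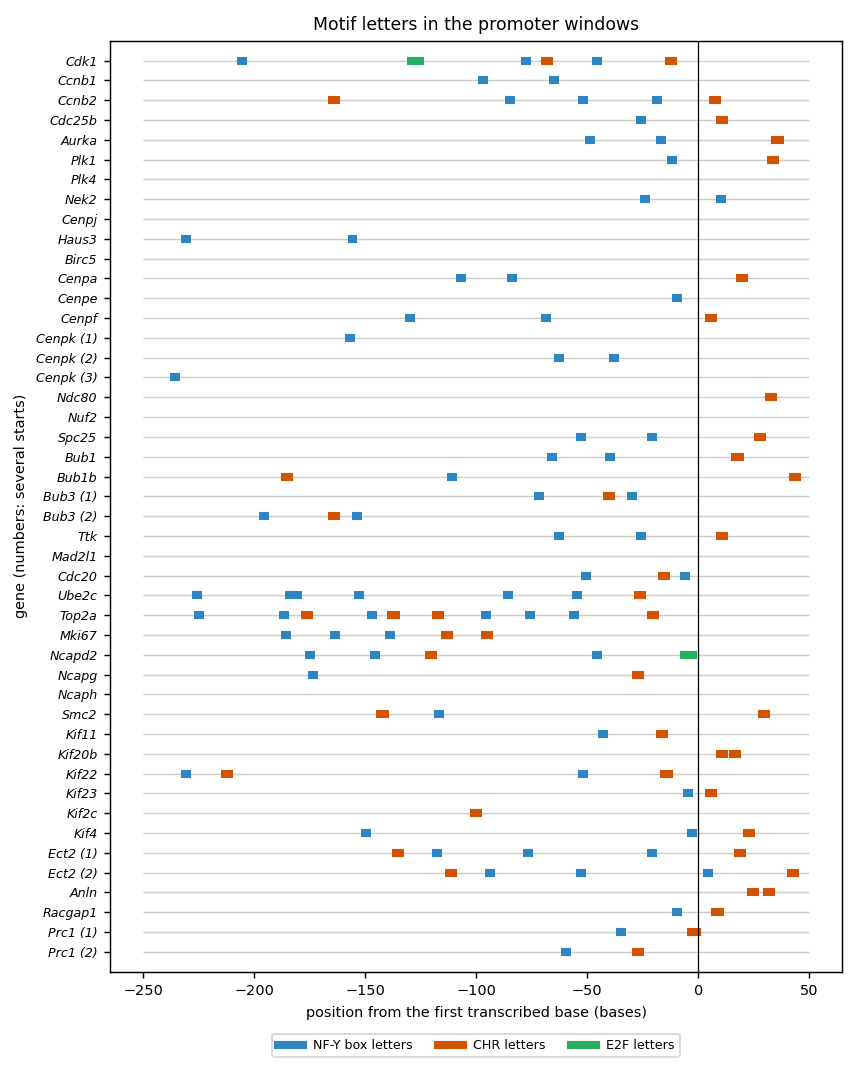
Positions of the NF-Y box (CCAAT), CHR and E2F letters in the 46 windows, drawn from 250 bases before to 50 after the start of transcription, with a number after the symbol where a gene has several starts. CHR letters gather near the start in most rows, where 31 of 46 matches begin within 50 bases of it.

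Among the genes of mitotic entry, Cdk1, the cyclins and Cdc25c fell, and Cdc25b was not called. Of the 5 genes tested, 4 fell from E11.5 to E14.5 (median -0.79) and 3 from E12.5 to E14.5. Over all genes tested, 17.7% fell over the whole course, 9.32% in the second interval and 0.441% in the first. With the letters as a replicate block, 11.9% fell in the second interval. These shares are the background for the counts of this role and of each role below. Cdc25c, a phosphatase that activates Cdk1, gave signals of 861, 638 and 799 at E11.5, 729, 565 and 630.4 at E12.5 and 344, 378 and 224 at E14.5 (arrays in the order A, B, C here and below). The E14.5 arrays were all below the earlier ones, whereas those of E11.5 and E12.5 overlapped. Its log2 change from E11.5 to E14.5 was -1.30 ± 0.21 (SE; limma, adjusted p = 0.0013), of which -1.05 came after E12.5. Cdc25b, the related phosphatase that acts at the centrosome, gave 652, 811 and 526 at E11.5, 710.4, 659.5 and 674 at E12.5 and 918, 615 and 523 at E14.5. These ranges overlap between all stages, and the change was 0.03 ± 0.22 (adjusted p = 0.93). The E14.5 A array held the highest of its 9 values, and without that array the change was -0.20 and still not called. The sign of this small change depended on the scaling, at -0.04 with arrays centred on their medians and -0.03 after quantile normalization. Cdk1 itself had a mean at E14.5 that was 62.4% of that at E11.5 (-0.70 ± 0.16, adjusted p = 0.0080), with an adjusted p of 0.051 after E12.5. The cyclin genes Ccna2 and Ccnb2 fell to 57.9% and 54.4% of their E11.5 means.

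Genes of the spindle poles and centrosomes came down in separate steps. All 7 fell between E11.5 and E14.5 (median -1.28), beside 17.7% of all genes tested. In the second interval 5 fell (9.32% of all genes tested) and in the first 2 (0.441%). For all 7 the 3 stages formed separate steps, as they did for 4.20% of all genes tested. Cenpj, which sets centriole length and recruits pericentriolar material, gave 1011, 1254 and 1027 at E11.5, 679, 757 and 679 at E12.5 and 315, 375 and 324 at E14.5. No value of one stage reached those of the next, and the spread at E14.5 was the smallest of the 47 genes (coefficient of variation 9.61%). The changes were -0.63 ± 0.14 in the first interval (limma, adjusted p = 0.042) and -1.06 ± 0.14 in the second (adjusted p = 0.00089). Haus3, a subunit of the augmin complex that nucleates microtubules within the spindle, gave 1830.2, 2029 and 1918 at E11.5, 1334, 1332 and 1271 at E12.5 and 797, 879 and 704 at E14.5. Its stages were again fully separate, with changes of -0.55 ± 0.13 (adjusted p = 0.046) and -0.73 ± 0.13 (adjusted p = 0.0037). Both first-interval calls lie near the threshold. They were lost when any 1 of the 6 arrays of those stages was left out, with adjusted p up to 0.16 for Cenpj and 0.18 for Haus3, and with the E14.5 B or C array left out. Without E14.5 A, Cenpj kept the call and Haus3 did not.

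Aurka, the Aurora A kinase of the spindle pole, gave 2336, 2533 and 2065 at E11.5, 1958, 1802 and 1716 at E12.5 and 765, 998 and 537 at E14.5. The stages did not overlap, and the wider gap lay between E12.5 and E14.5, where its change of -1.29 ± 0.21 (limma, adjusted p = 0.0028) was the largest of the 47. Plk1, the Polo kinase that acts from mitotic entry to cytokinesis, gave 2082, 2169.7 and 1945 at E11.5, 1685, 1555 and 1730.0 at E12.5 and 678, 971 and 589 at E14.5. The stages were separate here too, E14.5 by the wider margin, with a change of -1.18 ± 0.18 in the second interval (adjusted p = 0.0020). Plk4, the kinase that starts centriole duplication, gave 3815, 4265 and 3763 at E11.5, 3259.9, 3050.3 and 3029 at E12.5 and 2650.3, 2485 and 1910.4 at E14.5. The stages were separate but close together, and the fall of -0.76 ± 0.15 from E11.5 to E14.5 (adjusted p = 0.0032) was the smallest in this role. The Plk4 probe set has the suffix _s_at, which marks probes shared by several transcripts. Nek2, a centrosome kinase, and Tpx2, the activator of Aurora A on spindle microtubules, fell to 43.5% and 44.5% of their E11.5 means.

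The 3 genes of the chromosomal passenger complex, which corrects wrong attachments and directs cytokinesis, all fell between E11.5 and E14.5, by log2 changes from -1.16 to -0.83. Incenp, the scaffold of the complex, gave 2829, 2168 and 1529 at E11.5, 1895, 1553 and 1662 at E12.5 and 1058, 1101 and 719 at E14.5. The E11.5 arrays spread widely, with array A above and array C below all E12.5 values, and all E14.5 values were lower than those of both earlier stages. Its change was -1.16 ± 0.24 over the whole course (limma, adjusted p = 0.0044), and it was called in the second interval (adjusted p = 0.034), a call lost without any 1 E12.5 array or without array A or C of E14.5 (adjusted p up to 0.11). Birc5, which encodes survivin, gave 5774, 4339 and 4613 at E11.5, 5456, 4599 and 3825 at E12.5 and 3232, 3338 and 1914 at E14.5, with overlap between the first 2 stages and none with E14.5. With the letters as a replicate block Birc5 and Aurkb were called in the second interval too. The fall of Birc5, -0.83 ± 0.24 (adjusted p = 0.020), was not called without E11.5 A or without E14.5 C, where the adjusted p reached 0.069. Aurkb, the kinase of the complex, fell to 52.2% of its E11.5 mean (adjusted p = 0.0094).

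At the centromere and kinetochore, 5 of 7 genes fell over the whole course and the same number fell after E12.5 (median over the whole course -0.99), and the members not called both belong to the Ndc80 complex, which binds microtubules. Cenpe, a kinesin that carries chromosomes to the spindle equator, gave 1811, 2190.1 and 1562 at E11.5, 1378, 1386 and 1375 at E12.5 and 586, 833 and 569.8 at E14.5. Its E12.5 arrays were nearly the same (coefficient of variation 0.397%) and separate from both other stages, and its change was -1.49 ± 0.18 (limma, adjusted p = 0.00023). Ndc80 gave 634, 899 and 628 at E11.5, 456, 578 and 647 at E12.5 and 335, 627 and 416 at E14.5. Its E14.5 B array lay inside the E12.5 range and just under the lowest E11.5 value, and the change of -0.68 ± 0.25 had an adjusted p of 0.055. Without E14.5 B, that p was 0.014. Nuf2, the partner of Ndc80, gave 1268, 1414 and 1452 at E11.5, 1237, 1413 and 1999 at E12.5 and 623, 1263 and 1031 at E14.5, with the E12.5 C array the highest of all 9 and E14.5 B close to the lowest E11.5 value. Its change was -0.56 ± 0.26 (adjusted p = 0.12), and without E14.5 B the adjusted p was 0.049. With the letters as a replicate block Ndc80 was called over the whole course and Nuf2 was not, while Nuf2 was called in the second interval (adjusted p = 0.037).

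Spc25, another subunit of the Ndc80 complex, had a change of -0.77 ± 0.19 (adjusted p = 0.011), which was called, though not without the letter A arrays (adjusted p = 0.095). Its second-interval call was lost in 9 of the 21 alternatives, among them those without any 1 E12.5 array or without array A or C of E14.5 (adjusted p up to 0.17). Cenpa, the histone H3 variant that marks centromeres, fell to 51.2% of its E11.5 mean, and Cenpf, a large protein of the outer kinetochore, fell to 39.0%. Cenpk, of the inner kinetochore network, fell to 48.8%, a call that was lost when all probe sets of a gene were averaged (adjusted p = 0.10). Differences among the members of this role were not tested against each other.

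All 7 genes of the spindle checkpoint and anaphase fell, both over the whole course (median -1.23) and from E12.5 to E14.5, and none was called in the first interval. Bub1, a checkpoint kinase of the kinetochore, gave 4532, 5113 and 4303 at E11.5, 3533, 3338 and 3011 at E12.5 and 1508, 2055 and 1263 at E14.5. The 3 stages were separate, and the change was -1.56 ± 0.18 (limma, adjusted p = 0.00019). Bub3, the adaptor that brings Bub1 and BubR1 to kinetochores, gave 7882, 7201 and 6672 at E11.5, 7098, 6043 and 6623 at E12.5 and 4286, 4786 and 3788 at E14.5. Its E12.5 A array lay within the E11.5 range while all E14.5 values were lower, and its change of -0.76 ± 0.14 (adjusted p = 0.0022) was the smallest of this role. When all Bub3 probe sets were averaged the adjusted p was 0.14. Ube2c, the ubiquitin-conjugating enzyme of the anaphase-promoting complex, and Cdc20, its activator, had first-interval changes of -0.08 and -0.12, which were not called, and second-interval changes of -1.08 (adjusted p = 0.0064) and -1.11 (adjusted p = 0.0041). The checkpoint genes Bub1b, Ttk and Mad2l1 fell to 39.9%, 38.9% and 48.1% of their E11.5 means.

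**Figure D5:**
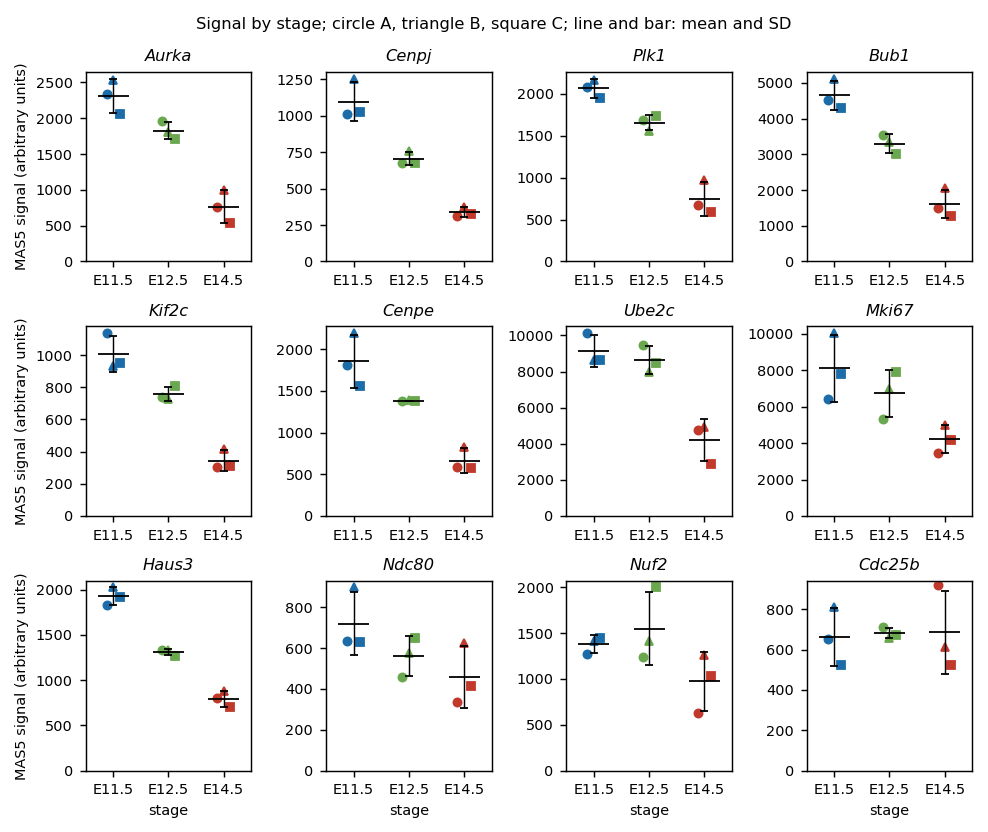
MAS5 signal of 12 of the genes in each array, by stage, on axes that start at 0, with circles for array A, triangles for B, squares for C, and the mean and SD of 3 arrays as black bars. Signals fall in steps for Aurka, Cenpj, Plk1, Bub1, Kif2c, Cenpe and Haus3, stay near their E11.5 level until E12.5 for Ube2c, and overlap between stages for Cdc25b.

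Genes of chromosome structure all fell over the whole course, 7 of 7 with a median of -0.93, and 3 of the 7 fell from E12.5 to E14.5, or 6 with the letters as a replicate block. Ncapg, a subunit of condensin I, which compacts mitotic chromosomes, gave 1278, 1402 and 1292 at E11.5, 1103, 1149.7 and 1039 at E12.5 and 517, 703 and 416 at E14.5. Its stages did not overlap and the change of -1.31 ± 0.18 (limma, adjusted p = 0.00050) was the largest of this role. Smc4, an ATPase of both condensins, gave 6036, 7489 and 5691 at E11.5, 4794, 5383 and 5419 at E12.5 and 3041, 4675 and 3449 at E14.5. Its stages were separate too, with E14.5 B close below the E12.5 arrays, and its change of -0.80 ± 0.18 (adjusted p = 0.0070) was the smallest. Mki67, whose protein Ki-67 coats mitotic chromosomes and is the usual stain for cycling cells, fell to 52.0% of its E11.5 mean (-0.94 ± 0.22, adjusted p = 0.0078). Top2a, the topoisomerase that separates sister chromosomes, fell to 46.0%, and Ncaph and Smc2 fell to 54.0% and 55.4%. When all probe sets of a gene were averaged, Smc2 changed by -0.60 and was not called (adjusted p = 0.080). The call of Ncapd2 (-0.93 ± 0.30, adjusted p = 0.036) was lost without array A or C of E11.5, C of E12.5, or B or C of E14.5, with adjusted p up to 0.12, and its E11.5 arrays had the widest spread of the 47 genes (coefficient of variation 40.8%).

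The mitotic kinesins fell as a whole: 7 of 7 between E11.5 and E14.5 (median -1.29) and 6 of 7 after E12.5. The second-interval calls of Kif23 and Kif4 both lay near the threshold: Kif23 was called (adjusted p = 0.045) but not in 11 of the 21 alternatives, and Kif4 was not called (adjusted p = 0.056) but was in 6 of them, the replicate block among these (adjusted p = 0.016). The alternatives that lost Kif23 include those without E11.5 A or B, any 1 E12.5 array, or E14.5 A or C (adjusted p up to 0.14). Kif2c, a kinesin that takes microtubules apart at centromeres, gave 1135, 932 and 952 at E11.5, 739, 726 and 809 at E12.5 and 302, 419 and 310.3 at E14.5. The stages were separate, and the E14.5 mean was 34.2% of the E11.5 mean (-1.56 ± 0.16, limma, adjusted p = 8.1e-05). Kif23, a motor of the central spindle, gave 2114, 2154 and 1699 at E11.5, 1726, 1856 and 1768 at E12.5 and 1277, 1431 and 926 at E14.5. Its E11.5 C array was below all E12.5 arrays, and its fall of -0.73 ± 0.18 (adjusted p = 0.0095) was the smallest in this role. Kif11, the motor that pushes the spindle poles apart, fell to 47.1% of its E11.5 mean. Kif20a, Kif20b, Kif22 and Kif4 fell to 38.5%, 41.5%, 36.1% and 48.9%. The size of the Kif22 change depended on the probe set. It was -1.54 with the one used and -0.61 when _x_at probe sets were allowed. In that setting Kif22 was still called over the whole course (adjusted p = 0.034) but not in the second interval.

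Cytokinesis had the smallest median change of the 8 roles, -0.59 over the whole course, with 3 of 4 genes called there and none in either interval, although Ect2 and Racgap1 passed in the second with the letters as a replicate block. Ect2, which activates RhoA at the division plane, gave 2414, 2977 and 2335 at E11.5, 1375, 2183 and 1751 at E12.5 and 786, 1572 and 964 at E14.5. One E14.5 value, that of array B, lay above the lowest E12.5 value, while all E14.5 values were below those of E11.5, and the change was -1.27 ± 0.26 (limma, adjusted p = 0.0043). Racgap1, the partner of Kif23 in centralspindlin, gave 1443, 1267 and 1205 at E11.5, 1280.3, 1322 and 1215 at E12.5 and 955, 1085 and 740.5 at E14.5, with all E14.5 arrays under the others and a change of -0.51 ± 0.16 (adjusted p = 0.030). Anln, the scaffold anillin of the contractile ring, gave 2706, 2356 and 2094 at E11.5, 2422, 2211 and 2029 at E12.5 and 1975, 1915 and 1087 at E14.5. Arrays A and B at E14.5 were close below the lowest earlier values and array C was far lower, and the change of -0.57 ± 0.23 was not called (adjusted p = 0.073). Prc1, which bundles the central spindle, changed by -0.62 ± 0.20 (adjusted p = 0.033). The calls of Racgap1 and Prc1 were lost when array A or B of E11.5 or array C of E14.5 was left out, with adjusted p up to 0.15 and 0.10 over all alternatives. Anln was called without E14.5 A and with the letters as a replicate block (adjusted p = 0.025).

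The E14.5 arrays differed among themselves in most of these genes together. Array B was the highest of the stage for 43 of the 47 genes and array C the lowest for 35, with array A lowest for the other 12. Relative to each gene's mean over the 9 arrays, the mean log2 signal of the 47 genes was -0.64 in array A, -0.30 in array B and -0.93 in array C. At E11.5 the same means were 0.51, 0.49 and 0.33. The E12.5 arrays were close together at 0.20, 0.16 and 0.17. The median coefficient of variation of a gene was 12.4% at E11.5, 8.01% at E12.5 and 25.7% at E14.5. For Cdc25b, Ndc80, Nuf2 and Ect2 the E14.5 arrays overlapped those of E12.5.

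Markers of other cell types were measured in the same samples. The summed signal of 12 cartilage markers at E14.5 was 79063 in array A, 18370 in array B and 8937 in array C, while the mitosis genes were highest in B and lowest in C. At E11.5 and E12.5 the same sum lay between 15841 and 18972 and between 25050 and 30560. Sums of 10 skeletal muscle markers were 4006 to 6593 at E11.5, 6309 to 11399 at E12.5 and 9015 to 12151 at E14.5. Endothelial markers (7 genes) summed to 291 to 593, 433 to 704 and 1091 to 1479 at the 3 stages, blood and macrophage markers (7 genes with a probe set) to 398 to 907, 375 to 589 and 498 to 668, epithelial markers (7 genes) to 625 to 731, 783 to 895 and 929.7 to 1104, and neural and Schwann cell markers (4 genes with a probe set) to 932 to 1070.3, 1473 to 1543 and 1444 to 1676. Per array, 0 to 6 of the 7 endothelial, 2 to 4 of the 7 blood and macrophage and 2 to 4 of the 7 epithelial markers were above the filter signal. Pecam1, Hba-a1, Ptprc, Krt14 and Trp63 were below it in all 9 arrays. The part of these cells in the decline of the mitosis genes was not tested. The ratio of 3' to 5' Gapdh control signals, a measure of RNA quality, lay between 0.717 and 0.831 with the stages overlapping. The same ratio for Actb was 1.28, 1.39 and 1.44 at E11.5, 1.27, 1.44 and 1.48 at E12.5 and 1.34, 1.36 and 1.53 at E14.5, so that array C had the highest ratio in each stage, and E14.5 C, where the mitosis genes were lowest, the highest of all 9. The stages overlapped here too, and the part of RNA quality in the differences was not tested.

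Where a gene had more than 1 probe set, the others mostly gave the same direction. The 47 genes had 108 probe sets, 32 genes had several, and 48 of the 61 further probe sets passed the filter. Of these 48, 47 were lower at E14.5 than at E11.5, beside 49.8% of all genes tested. The exception was a second probe set of Bub3, at 0.02. The median log2 change of the 48 was -0.90, with a range from -1.71 to 0.02. For 29 of them all E14.5 arrays were below all E11.5 arrays, beside 24.1% of all genes tested. Both shares count 1 probe set per gene, and a share over all probe sets is not given here. Of the probe sets used, 7 had the suffix _s_at and 13 the suffix _a_at, the latter marking several transcripts of 1 gene.

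Other genes of mitosis outside the list mostly went the same way. Of 126 tested genes in 5 further lists, 80 fell from E11.5 to E14.5 and 1 rose, with a median of -0.66. Over all genes tested 17.7% fell and 22.9% rose, which is the background for every list that follows. Other kinetochore and centromere genes fell in 22 of 32 cases (median -0.78), led by Cenph (-1.44 ± 0.25) and Spdl1 (-1.39 ± 0.21), which recruits dynein to kinetochores. Genes of the spindle, centrosomes and microtubules fell in 28 of 33 cases (median -0.91), among them Spag5 (-1.46 ± 0.16) and the kinesin gene Kif18a (-1.36 ± 0.34). Checkpoint, cohesion and anaphase genes fell in 13 of 31 cases (median -0.37), with Cdca2 (-1.53 ± 0.13) and Sgo1 (-1.31 ± 0.16), the protector of centromeric cohesion, at the front. In cytokinesis and condensin 5 of 10 fell (median -0.49), including Arhgap11a (-1.18 ± 0.16) and Cit (-1.15 ± 0.37).

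Regulators of mitotic entry and factors of the DREAM and FoxM1 pathway fell in 12 of 20 cases and rose in 1 (median -0.63). Ccnf (-1.17 ± 0.25), the cyclin F gene, and Melk (-1.14 ± 0.16), a kinase gene, had the largest falls. Against this direction stood Rbl2, which encodes p130, the pocket protein of the DREAM complex that is most abundant in resting cells. Rbl2 gave 149, 211 and 179.6 at E11.5, 248, 301 and 327 at E12.5 and 563, 507 and 466 at E14.5. Each stage was above the one before without overlap, and its rise from E11.5 to E14.5 was 1.52 ± 0.17 (limma, adjusted p = 0.00014).

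Genes of the phases before mitosis were set beside these. DNA replication and S phase genes fell in 25 of 31 cases and none rose (median -0.87), with Mcm10 at -1.57 ± 0.16 and Orc1, the largest subunit of the origin recognition complex, at -1.57 ± 0.17. Their windows carried the E2F letters in 9 of 30 (30.0%), and the CHR letters in 5 of 30 (16.7%). Of 8 tested D cyclins and CDK inhibitors none fell and 3 rose (median 0.44), beside 17.7% of all genes tested that fell and 22.9% that rose. Cdkn2c, which encodes the inhibitor p18, gave 129, 187 and 190.5 at E11.5, 255, 256 and 291 at E12.5 and 915, 769 and 383 at E14.5. All E14.5 values were above the earlier ones, array C the least, and the change was 1.96 ± 0.30 (limma, adjusted p = 0.00084). Cdkn1c, which encodes the inhibitor p57, rose by 0.77 ± 0.13 (adjusted p = 0.0013) and Ccnd3, a D-type cyclin gene, by 0.75 ± 0.16 (adjusted p = 0.0054). These lists were compared with the 47 genes by counts and medians, and no difference between lists was tested.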

How the data were processed

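For each probe set and array the authors deposited an intensity, the MAS5 signal. The submitters' processing notes name Affymetrix Expression Console 1.1 for this step. Per the values, the arrays had been scaled to a mean of 500 after the lowest and highest 2% were left out, so they were used with no further normalization. Affymetrix signals carry no read depth, and the number of arrays limits the precision.

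Probe sets with 1 gene symbol were kept (34945 of 45101), and each gene was represented by the one with the highest mean log2 signal, with _x_at probe sets taken only where no other existed. Signals under 22.7, the 25th percentile, were set to that floor. Genes above 90.6, the median signal, in at least 3 of 9 arrays were tested. limma 3.58.1 in R 4.3.3 fitted 1 mean per stage (6 residual degrees of freedom), with two-sided contrasts, an F-test and Benjamini-Hochberg adjustment over 11575 genes. The script was tested on simulated data. Changes are log2 differences with the SE of the fit, and signals are before the floor.

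Values in every array are given for the genes with the largest and smallest change of each role. They are also given for the genes not called over the whole course, those called in the first interval and the 3 largest changes in the other contrasts. From the further lists the 2 largest changes and any that moved the other way are named, with array values only for Rbl2 and Cdkn2c. Ube2c, Cdc20 and other genes given as percentages complete the list. The genes, roles, lists and rules were chosen with earlier results of these data known.

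Deviations from stage means correlated between arrays of the same letter at 0.520, 0.133 and 0.332 (A, B and C) for E11.5 and E12.5, at 0.310, 0.121 and 0.289 for E12.5 and E14.5, and at 0.313, -0.00516 and 0.238 for E11.5 and E14.5. The labels do not explain the letters. Unpaired arrays were therefore the main design, and a replicate block by letter was 1 of 21 alternative settings of floor, filter, scaling, probe set choice, priors and arrays left out. The letter A arrays were also left out together.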

Additional observations from a re-analysis of the deposited data

How the results depend on the processing

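Of the 43 genes that fell from E11.5 to E14.5, 30 kept that call under all 21 alternatives, as did 8 of the 30 in E14.5 versus E12.5 (Aurka, Plk1, Cenpj, Haus3, Cdc20, Ube2c, Ncaph and Kif2c) and neither of the 2 in E12.5 versus E11.5. For 46 of the 47 genes the change from E11.5 to E14.5 was below 0 in every alternative. In E12.5 versus E11.5, 1 gene was called with no filter and with quantile normalization, and 0 with the mean of probe sets, without the letter A arrays and in the fit of the 6 arrays of those stages (where the unadjusted count in the 9-array fit was 9). Leaving out 1 array at a time gave 0 to 1, beside 0.104% to 0.544% of all genes tested that fell. In E14.5 versus E12.5 the count was 10 without the letter A arrays and 22 (without E14.5 C) to 41 (without E14.5 B) with 1 array left out, beside 2.58%, 5.62% and 8.46% of all genes tested that fell in those fits. In E14.5 versus E11.5 it was 33 without the letter A arrays (10.9% of all genes tested) and 39 to 44 with 1 array left out (13.3% to 16.9%). limma's F-test called 40 genes with all 9 arrays, beside 33.7% of all genes tested. Without the letter A arrays it called 20 genes, and the share of all genes tested in that fit is not given here. With the letters as a replicate block the counts were 2, 39 and 45 in the 3 comparisons, beside 0.631%, 11.9% and 20.4% of all genes tested that fell. The F-test called 43 genes with this block, again without a share of all genes tested given here. Cdc25b, at 0.03 from E11.5 to E14.5, was at -0.044 with median centring, -0.025 with quantile normalization, -0.0054 with array weights and -0.20 without the letter A arrays, and between -0.20 and 0.20 with 1 array left out. It was not called in any of these. The cause of these differences was not tested, and the settings with fewer arrays have fewer residual degrees of freedom.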
